A study of Mus musculus with 4 samples.

Results

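The 9 genes described here are the Toll-like receptors Tlr1, Tlr2, Tlr3, Tlr4, Tlr7, Tlr9 and Tlr13, the co-receptor Cd14 and the adaptor Myd88. They were taken by symbol from single-cell count matrices, where each matched 1 of 32286 features. The cells came from Tmem119-2A-CreERT2;Ai6 mice, in which a tamoxifen-inducible Cre under the control of Tmem119, a gene of microglia, switches on the green fluorescent reporter ZsGreen. All groups carried both alleles; the sources used here do not give the age of the mice. In the stroke groups (pMCAO) the right middle cerebral artery was tied off permanently, and in the sham groups the surgery was done without that step. On day 3 the hemisphere of the operated side was dissociated and live ZsGreen-positive cells were sorted. Tissue of 4 mice was combined before each sort, and there was 1 pool for each sex and treatment, 4 pools in all.

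Toll-like receptors recognise molecules of microbes and of damaged cells. TLR2, with TLR1 or TLR6 as partner, binds lipoproteins at the cell surface, and TLR4 binds lipopolysaccharide there with the help of CD14 and MD-2. TLR3, TLR7, TLR9 and TLR13 sense nucleic acids in endosomes. MyD88 carries the signal of each of these receptors except TLR3 to IRAK kinases, TRAF6 and the NF-kB transcription factors. In the brain, microglia are the cells best known for expressing them.

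After quality control 18045 of 20437 barcodes remained, 4007 to 4982 per pool, with medians of 5647 to 9786 unique molecular identifiers (UMIs, counted RNA molecules) per cell. The barcode with the fewest UMIs held 4198 in the male sham pool and 500 or 501 in the others, a gap in depth selection that is confounded with that pool. Between 3 and 9 cell barcodes were shared by any pair of pools. Clustering was done without the 9 genes and the other genes of their pathway. It gave 13984 microglia-like cells in 10 clusters, in each of which 10 of 10 microglia markers, such as P2ry12, Tmem119 and Sall1, were found in at least 25% of cells. The sort also held cells that carried markers of other types, among them macrophages, dendritic cells and neutrophils.

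Sham and stroke microglia-like cells differed in state. Homeostatic-like clusters, high in P2ry12 and similar genes, made up 86.6% of this class in sham females and 46.9% in sham males, against 15.1% and 15.6% in the stroke pools. Immediate early-like clusters, with Fos, Jun and Egr1, made up a further 43.9% in sham males, and Fosb and Egr1 also led 1 homeostatic-like cluster. In stroke females and males 26.4% and 23.6% were Spp1 and Igf1 high-like, 14.5% and 18.3% interferon-responsive-like, 15.5% and 14.1% mitotic-like, and 20.6% and 15.5% lay in a cluster left unnamed, with Ramp1 and Lag3 at its head. Stroke cells also had more UMIs, with medians of 8792 and 8789 per microglia-like cell against 6179 and 5424.5 in sham. Homeostatic-like cells went the other way, with 4874.5 and 4755 in stroke females and males against 6096 and 5333 in sham. With 1 pool per sex and treatment, the RNA held by a cell and the depth of its pool cannot be told apart. The median share of mitochondrial UMIs, a sign of RNA quality, moved with treatment too, at 2.08% and 1.18% in sham females and males and 4.94% and 4.57% in stroke. A limit of 5% left 1801 of 3512 and 1890 of 3265 stroke cells. Under it Tlr2 was at a log2 change of 1.43 and Cd14 at -0.53. The numbers of members called higher and lower, 2 and 4, were the same as without the limit. The share of all genes called under it is not given here.

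Tlr2 had the larger of the rises after stroke. Its level in microglia-like cells was 0.910 UMIs per 10000 (0.868 to 0.952) in sham females and 0.831 (0.795 to 0.869) in sham males, and 2.18 (2.13 to 2.22) and 2.26 (2.21 to 2.30) in stroke females and males. These intervals are exact Poisson 95% intervals and cover counting error only, here and below. Both stroke pools stood above both sham pools, 2.39-fold in females and 2.71-fold in males. In edgeR's quasi-likelihood test on UMI sums per pool, with sex in the model and TMM scaling, the log2 change was 1.65 ± 0.14 (SE, 2 pools per treatment, adjusted p = 5.0e-12), or 3.13-fold. Per cell, the mean Tlr2 count was 0.575 and 0.496 UMIs in sham females and males and 2.53 and 2.63 in stroke.

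Tlr1, which encodes the partner of TLR2 for triacylated lipoproteins, rose less. It was at 0.257 UMIs per 10000 (0.235 to 0.280) in sham females and 0.218 (0.199 to 0.237) in sham males, and 0.290 (0.273 to 0.307) and 0.287 (0.270 to 0.305) in stroke females and males. The pools did not overlap between treatments, but the counting intervals of the female pools did. The log2 change was 0.58 ± 0.14 (edgeR adjusted p = 9.5e-04). With library totals in place of TMM it was 0.29 (edgeR adjusted p = 0.089), so the call depends on the scaling.

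The starts of Tlr2 and Tlr1 are shown because these receptor partners were the members called higher. Tlr2 lies at chr3:83836272-83841767 on the minus strand of GRCm38 and Tlr1 at chr5:64924679-64933563, also on the minus strand (GENCODE M21). Each sequence holds the bases before the first annotated exon within 250 bases of the RefSeq start (GRCm38.p6), at chr3:83841768-83841858 and chr5:64933564-64933808, read 5′ to 3′ on the strand of the gene. Capitals mark the motif matches.
Tlr2: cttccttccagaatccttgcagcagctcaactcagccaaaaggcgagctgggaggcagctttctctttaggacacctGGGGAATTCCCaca
Tlr1: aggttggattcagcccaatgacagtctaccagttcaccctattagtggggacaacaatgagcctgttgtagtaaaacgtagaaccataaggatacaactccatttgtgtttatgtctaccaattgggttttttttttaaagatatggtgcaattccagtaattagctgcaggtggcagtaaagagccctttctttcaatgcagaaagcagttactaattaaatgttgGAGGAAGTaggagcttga
Searched on both strands were the NF-kB consensus, the AP-1 motif TGANTCA, the PU.1 motif GAGGAAGT and the interferon response core, which is GAAA repeated after any 2 bases. The capitals in Tlr2 are overlapping matches to the NF-kB consensus, which 1.3% of the 32851 RefSeq promoters hold within the same 91 bases. The capitals in Tlr1 are the PU.1 motif, held by 2.36% of promoters within the same 245 bases. A match describes letters only, and no binding was measured.

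Cd14, which hands lipopolysaccharide to TLR4 and lipoproteins to TLR2, fell as a share of RNA. It was at 3.78 UMIs per 10000 (3.69 to 3.86) in sham females and 4.60 (4.51 to 4.68) in sham males, and 2.19 (2.14 to 2.23) and 2.11 (2.06 to 2.16) in stroke females and males. Sham was 1.73 times stroke in females and 2.18 times in males, with no overlap. The log2 change was -0.66 ± 0.15 (edgeR adjusted p = 3.8e-04). Fits that leave out 1 pool drop the sex term and leave an arm of 1 pool, which is assumed to vary like the other arm, here and below. Without the male stroke pool the change was -0.64 with the call lost (edgeR adjusted p = 0.064), and without the male sham pool it was -0.43 (edgeR adjusted p = 3.1e-04).

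Counted per cell, Cd14 differed little between treatments. There were 2.39 and 2.74 Cd14 UMIs per cell in sham females and males and 2.54 and 2.46 in stroke, ratios of stroke to sham of 1.07 and 0.897. Over all microglia-like cells the total UMIs per cell rose at the same time. Fewer Cd14 molecules and more RNA of other genes therefore cannot be told apart on the scale of UMIs per 10000. On that scale the same limit holds for the other members with lower levels, but their counts per cell differed. Per cell, Tlr7 (ratios of stroke to sham of 1.15 in females and 1.66 in males), Tlr13 (1.46 and 1.81) and Myd88 (1.39 and 1.29) were higher in stroke. Tlr9 was lower (0.72 and 0.733). Tlr3 (0.877 and 1.11) and Tlr4 (0.862 and 1.41) were lower in females and higher in males.

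Tlr4, the lipopolysaccharide receptor, also fell. It was at 0.584 UMIs per 10000 (0.551 to 0.619) in sham females and 0.452 (0.426 to 0.480) in sham males, and 0.273 (0.257 to 0.290) and 0.326 (0.308 to 0.345) in stroke females and males. The groups did not overlap, and the ratio of sham to stroke was 2.14 in females and 1.39 in males. The log2 change was -0.49 ± 0.14 (edgeR adjusted p = 0.0053). The call was lost in DESeq2 (-0.44, adjusted p = 0.084) and without the female stroke pool (-0.36, edgeR adjusted p = 0.30). Per cell the sexes moved apart, from 0.369 to 0.318 UMIs in females but from 0.270 up to 0.380 in males.

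**Figure D1:**
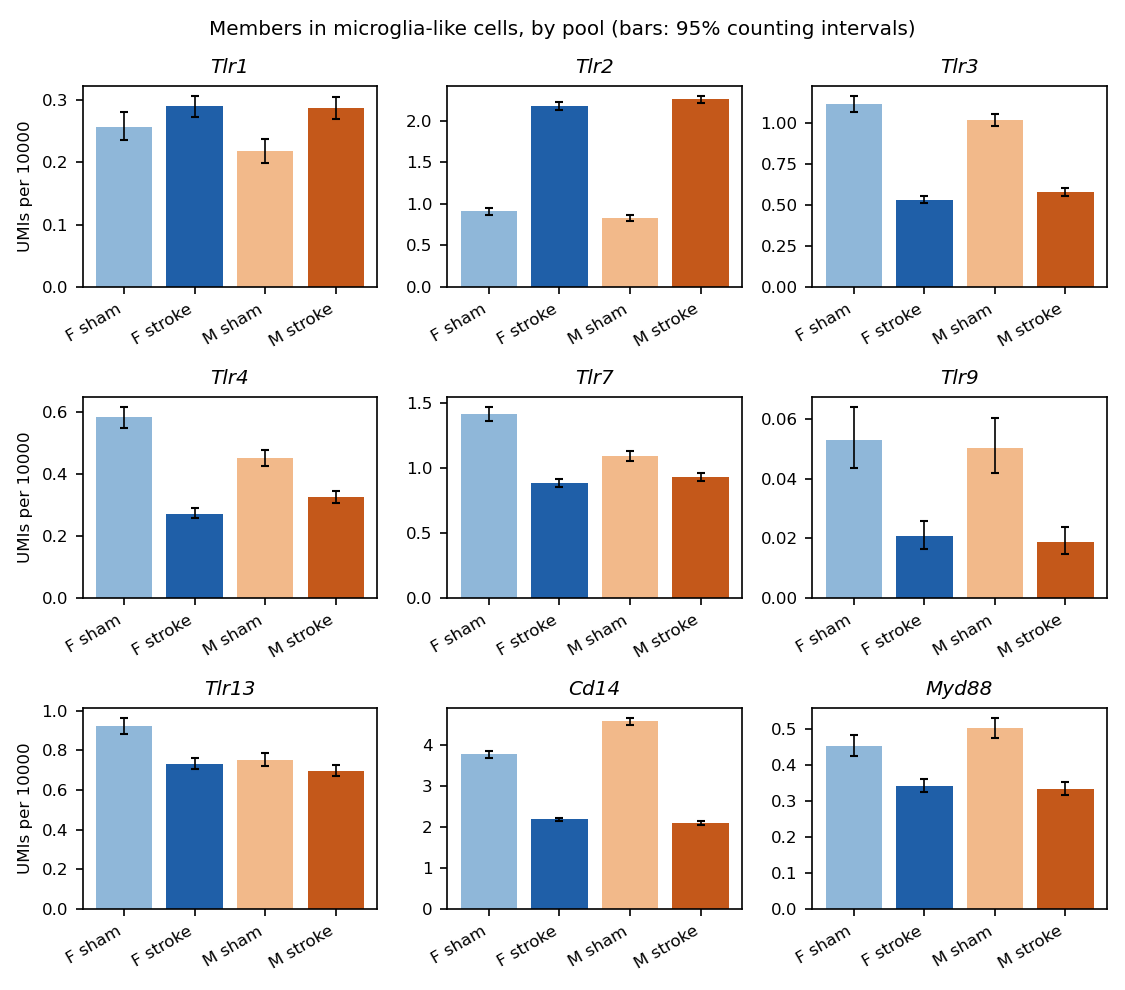
UMIs per 10000 UMIs of each member in microglia-like cells, 1 bar per pool (F female, M male), with exact Poisson 95% intervals that cover counting error only. Tlr2 and Tlr1 are higher in both stroke pools than in both sham pools, and the other 7 members are lower in both.

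Among the endosomal receptors, Tlr3, the sensor of double-stranded RNA, fell. It was at 1.12 UMIs per 10000 (1.07 to 1.17) in sham females and 1.02 (0.981 to 1.06) in sham males, and 0.533 (0.511 to 0.556) and 0.582 (0.558 to 0.607) in stroke females and males. Both stroke pools were below both sham pools, with sham 2.10 times stroke in females and 1.75 times in males. The log2 change was -0.64 ± 0.14 (edgeR adjusted p = 2.0e-04), and without the female stroke pool it was -0.57 with the call lost (edgeR adjusted p = 0.057). The antisense gene Gm45542 overlaps Tlr3 at chr8:45395665-45411080, and the sources used here do not say whether counting used strand.

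Tlr9, the receptor for unmethylated CpG DNA, was near the limit of detection. Its UMIs numbered 107 and 121 in sham females and males and 85 and 72 in stroke, or 0.0532, 0.0504, 0.0208 and 0.0189 per 10000. Both stroke pools lay below both sham pools. The log2 change was -1.09 ± 0.25 (edgeR adjusted p = 4.8e-04), and in DESeq2 it was -1.04 with the call lost (adjusted p = 0.055).

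Tlr7, the receptor for single-stranded RNA, did not pass the test. It was at 1.41 UMIs per 10000 (1.36 to 1.47) in sham females and 1.09 (1.05 to 1.13) in sham males, and 0.880 (0.852 to 0.910) and 0.926 (0.895 to 0.957) in stroke females and males. Both stroke pools were lower, by more in females than in males, and the log2 change was -0.16 ± 0.14 (edgeR adjusted p = 0.36). With library totals it was -0.46 (edgeR adjusted p = 0.0020), and without the male sham pool -0.26 (edgeR adjusted p = 0.0046).

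Tlr13, the receptor for bacterial ribosomal RNA, did not pass the test either. It was at 0.923 UMIs per 10000 (0.882 to 0.966) in sham females and 0.754 (0.719 to 0.789) in sham males, and 0.733 (0.707 to 0.760) and 0.696 (0.670 to 0.724) in stroke females and males. The stroke pools were lower on this scale, the closest values being those of female stroke and male sham. The log2 change was 0.07 ± 0.14 with TMM (edgeR adjusted p = 0.68) and -0.22 with library totals (edgeR adjusted p = 0.15), so its sign depends on the scaling. Without the female sham pool it was 0.18 (edgeR adjusted p = 0.026).

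Myd88, the common adaptor, did not pass the test in microglia-like cells. It was at 0.454 UMIs per 10000 (0.425 to 0.485) in sham females and 0.504 (0.476 to 0.533) in sham males, and 0.343 (0.325 to 0.361) and 0.334 (0.316 to 0.353) in stroke females and males. Both stroke pools lay below both sham pools, and the log2 change was -0.20 ± 0.14 (edgeR adjusted p = 0.22). With library totals it was -0.50 (edgeR adjusted p = 0.0011), and without the female sham pool -0.31 (edgeR adjusted p = 0.013). Myd88 shares part of its span with Slc22a14 on the same strand and Acaa1a on the other.

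With TMM 2 of the 9 members were called higher, where 25.1% of the 14209 genes tested were, and 4 of 9 lower, where 24.8% were. By UMIs per 10000, 2 members were above and 7 below in both stroke pools, where 23.2% and 58.0% of genes were. The median log2 change was -0.20 over the members and -0.04 over all genes. Library totals moved these medians to -0.50 and -0.34, and with them 1 member was called higher and 6 lower, where 2296 and 6344 genes were. The model leaves 1 residual degree of freedom, namely how far the response differs by sex, and borrows 35.4 prior degrees of freedom from all genes, so the p-values say nothing of the variation between mice.

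**Figure D2:**
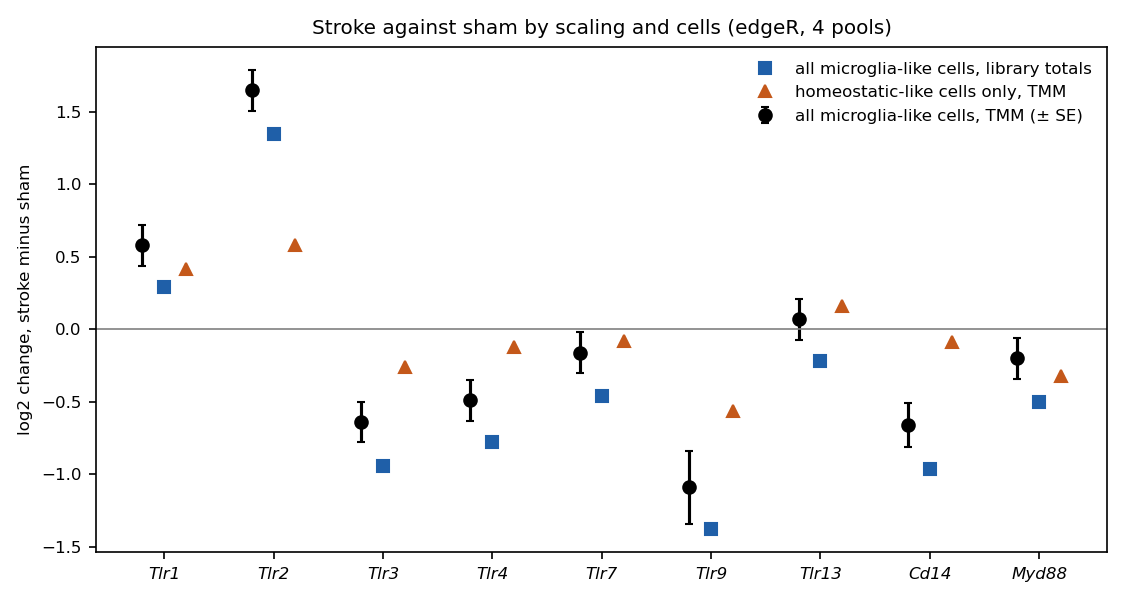
Log2 change of each member, stroke minus sham, from edgeR on 4 pools: all microglia-like cells with TMM (circles, bars are SE), with library totals (squares), and homeostatic-like cells only with TMM (triangles). Tlr2 is at 1.65, 1.35 and 0.58, and Cd14 at -0.66, -0.96 and -0.09.

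Within homeostatic-like cells taken as 1 group, Tlr2 passed the test and no other member did. Tlr2 was there at 0.819 UMIs per 10000 (0.776 to 0.863) in sham females and 0.692 (0.642 to 0.743) in sham males, and 1.04 (0.925 to 1.17) and 1.04 (0.925 to 1.17) in stroke females and males, a log2 change of 0.58 (edgeR adjusted p = 0.0069). Cd14 was at -0.09 (edgeR adjusted p = 0.86), Tlr3 at -0.26 (adjusted p = 0.41), Tlr4 at -0.12 (adjusted p = 0.78), Tlr9 at -0.56 (adjusted p = 0.59) and Tlr1 at 0.42 (adjusted p = 0.22). Over all genes 422 were called higher and 213 lower in these cells, against 3561 and 3522 in all microglia-like cells. The restriction was chosen after the data were seen, and the stroke pools held 532 and 508 such cells.

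The treatments filled the homeostatic-like clusters differently. Sham cells lay mainly in cluster 1 in females (1668 of 2757) and in cluster 0 in males (1717 of 1887), and stroke cells mainly in cluster 5 (369 of 532 and 291 of 508), the one led by Fosb and Egr1. Within cluster 0 Tlr2 was at 0.848 (0.715 to 0.998) and 0.532 (0.173 to 1.24) UMIs per 10000 in sham and stroke females and at 0.680 (0.629 to 0.734) and 0.715 (0.501 to 0.990) in males. Within cluster 5 it was at 0.881 (0.802 to 0.966) and 1.07 (0.933 to 1.21) in females and at 0.923 (0.691 to 1.21) and 1.15 (1.0 to 1.32) in males. Within cluster 1 it was at 0.781 (0.727 to 0.839) and 1.02 (0.786 to 1.31) in females and at 0.645 (0.421 to 0.944) and 0.967 (0.681 to 1.33) in males. The intervals of sham and stroke overlapped in each of these clusters in both sexes. A difference of Tlr2 within a homeostatic-like cluster and a different mix of these clusters were thus not told apart.

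The states differed most plainly in Tlr2 and Cd14, and both were highest in the Ccl3 and Ccl4 high-like state in every pool. With at most 5% mitochondrial UMIs, the mean of Tlr2 was instead highest in the Spp1 and Igf1 high-like state, at 2.71 UMIs per 10000. That mean takes only pools with at least 50 cells in the state, so the pools averaged can differ between states and settings. Under this limit the mean of Cd14 in the Ccl3 and Ccl4 high-like state was 11.2, the same as its male sham level without the limit. The Ccl3 and Ccl4 high-like state was named from Ccl3, Ccl4, Il1b, Tnf, Cd83 and Nfkbiz, of which 5 of 6 were raised. Tlr2 was there at 3.48 UMIs per 10000 (2.85 to 4.20) in sham females and 2.12 (1.82 to 2.46) in sham males, and 4.07 (3.55 to 4.64) and 4.19 (3.70 to 4.73) in stroke females and males. Cd14 was at 7.82 UMIs per 10000 (6.87 to 8.87) in sham females and 11.2 (10.5 to 11.9) in sham males, and 5.01 (4.43 to 5.64) and 4.40 (3.90 to 4.95) in stroke females and males. These cells numbered only 35 and 115 in sham females and males and 66 and 62 in stroke. The states come from clusters of these cells, so their differences are given with no test.

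In every state and both sexes Tlr2 was higher in the stroke than in the sham pool. That order over 7 of 7 states was found for 1.1% of all genes tested, and in 4 states the counting intervals were separate in both sexes. Spp1 and Igf1 high-like cells came next to the chemokine-high state after stroke, with Tlr2 at 2.64 UMIs per 10000 (2.55 to 2.73) in females and 2.86 (2.76 to 2.95) in males. Interferon-responsive-like cells had 1.19 and 0.789 in sham females and males and 2.28 and 2.31 in stroke. The order does not hold in every cluster. In females Tlr2 was at 0.672 and 0.489 in sham and stroke in cluster 4 and at 1.64 and 1.61 in cluster 9, which together form the immediate early-like state, and it was not higher in cluster 0 either. Sham females had 92 and 25 cells in clusters 4 and 9 and stroke females 13 and 196. The count over states was chosen after its values were seen.

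Cd14 was lower in stroke in 5 of 7 states in both sexes, each time with separate intervals. The others were the mitotic-like and the Spp1 and Igf1 high-like state, where sham females had 16 and 29 cells. The share of all genes lower in 5 of 7 states was not counted, nor was any share with separate intervals, for Cd14 or for Tlr2. Whether 5 of 7 is unusual is thus not known. Over all microglia-like cells 58.0% of genes were lower in both stroke pools than in both sham pools. Mitotic-like cells had the lowest Cd14 of the states in every pool, at 1.25 UMIs per 10000 (0.852 to 1.78) in sham females and 2.05 (1.67 to 2.48) in sham males, and 1.48 (1.41 to 1.55) and 1.35 (1.28 to 1.43) in stroke females and males. Homeostatic-like cells differed less between treatments, with 3.72 and 4.15 in sham females and males and 3.35 and 3.50 in stroke. By cluster, Cd14 was not lower in stroke in cluster 0 (3.88 and 4.26 in sham and stroke females, 4.14 and 4.21 in males), nor in females in cluster 1 (3.46 and 3.49) or cluster 4 (4.88 and 6.52). It was lower in both sexes in cluster 5, at 4.17 and 3.27 in females and 4.58 and 3.41 in males.

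**Figure D3:**
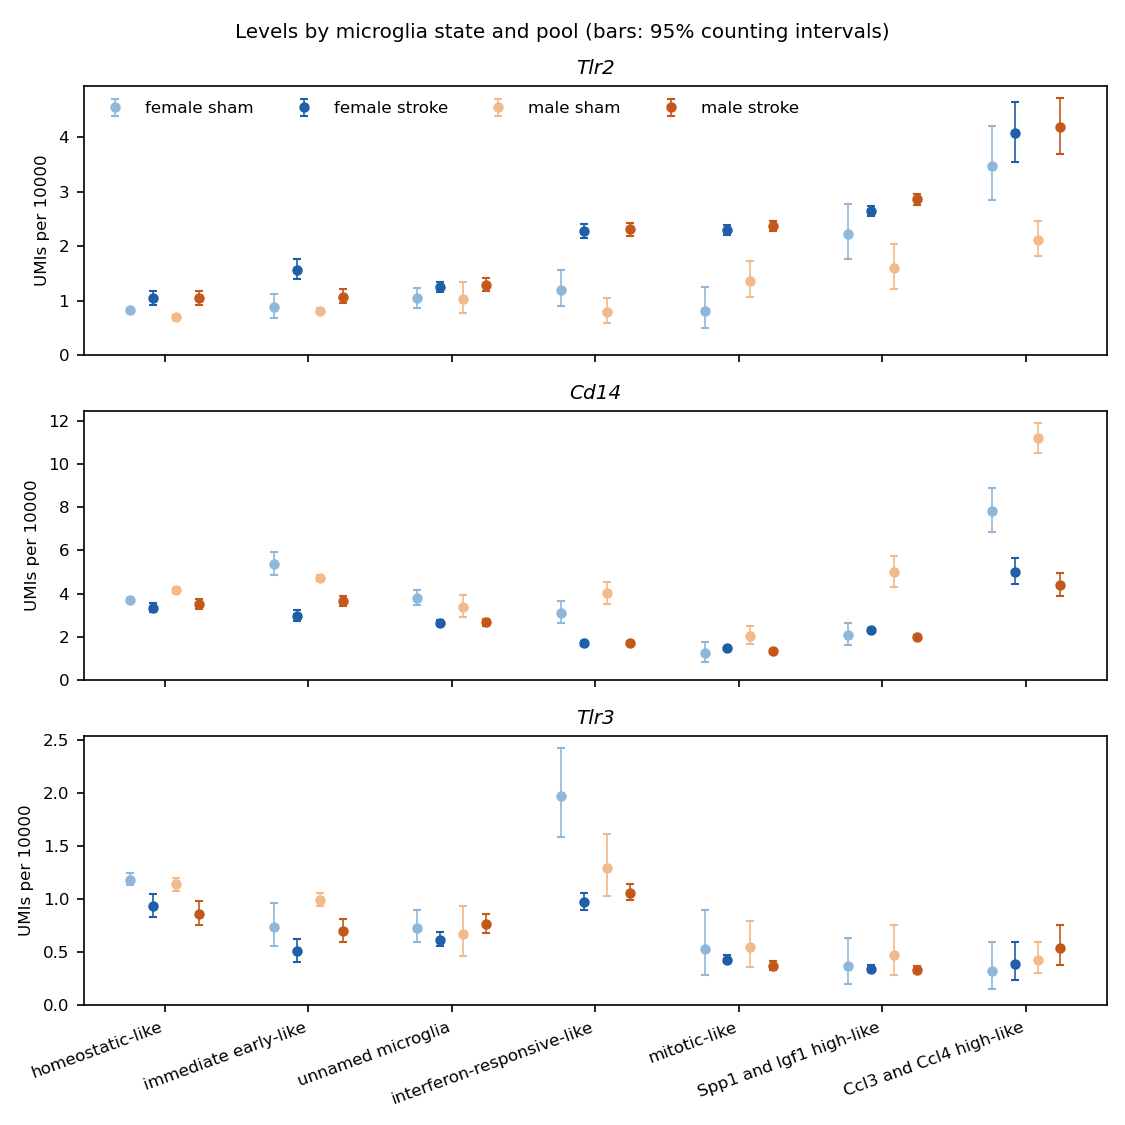
UMIs per 10000 of Tlr2, Cd14 and Tlr3 in 7 microglia states, 1 point per pool with exact Poisson 95% intervals. Tlr2 and Cd14 are highest in Ccl3 and Ccl4 high-like cells, whereas Tlr3 is highest in interferon-responsive-like and low in Spp1 and Igf1 high-like cells.

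Tlr3 had another order over the states and was highest in interferon-responsive-like cells in every pool. It was there at 1.97 UMIs per 10000 (1.58 to 2.42) in sham females and 1.29 (1.03 to 1.61) in sham males, and 0.973 (0.891 to 1.06) and 1.06 (0.987 to 1.14) in stroke females and males. Homeostatic-like cells came next, at 1.18 and 1.14 in sham females and males and 0.934 and 0.862 in stroke, and their intervals overlapped those of the interferon-responsive-like cells in stroke females and sham males. Spp1 and Igf1 high-like cells were low, at 0.343 (0.313 to 0.375) in stroke females and 0.334 (0.302 to 0.368) in stroke males.

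Tlr7 and Tlr13 spread less over the states of the stroke pools than Tlr2, Cd14 and Tlr3 did. Tlr7 lay between 0.790 UMIs per 10000 in mitotic-like and 1.07 in homeostatic-like cells of stroke females, and in males between 0.791 in mitotic-like cells and 1.19 in homeostatic-like and immediate early-like cells. It was the only member that moved the same way in both sexes in 0 of 7 states. Tlr13 lay between 0.624 in mitotic-like and 1.16 in Ccl3 and Ccl4 high-like cells in stroke females, and between 0.598 and 0.953 in the same states in males. It was higher in stroke in both sexes in 2 of 7 states and lower in 0. In Spp1 and Igf1 high-like cells it was at 0.372 and 0.317 in sham females and males. The stroke levels there were 0.748 and 0.697, with separate intervals, but sham held only 29 and 41 such cells.

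The share of cells with a UMI gave the same order of sham against stroke for Tlr2 and Cd14. After each cell was thinned to 3000 UMIs, Tlr2 was found in 21.2% (exact binomial 95% interval 19.7 to 22.8) and 20.7% (19.5 to 22.0) of microglia-like cells in sham females and males and in 37.8% (36.1 to 39.5) and 38.0% (36.2 to 39.7) in stroke. Unthinned, these shares were 36.2%, 34.6%, 62.9% and 62.3%. Cd14 was found in 64.7% (62.9 to 66.4) and 70.6% (69.2 to 72.0) in sham and in 45.6% (43.9 to 47.4) and 46.0% (44.2 to 47.8) in stroke, and unthinned in 82.9%, 87.3%, 74.1% and 75.3%. Thinning left out 270 to 305 shallower microglia-like cells per pool, except that it left out 0 in male sham.

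Neuron-like cells were taken as the background of free RNA and doublets. Expression of these genes by the neuron-like cells themselves, which would raise it, was not tested. Thinned in the same way, Cd14 was found in 4.96% and 17.0% of neuron-like cells in sham females and males and Tlr2 in 0.355% and 7.41%, with median depths of 5078 and 5698 UMIs. For all 9 members the share in microglia-like cells was above that in neuron-like cells of the same sham pool. Tlr9 came closest, with 1.81% and 1.69% of microglia-like cells against 0 of 282 neuron-like cells in females and 0.741% of 135 in males. For 0 of 282 a rough upper limit, taken as 3 in 282, is 1.06%. The neuron-like cells of sham males were too few to set Tlr9 apart from this background there.

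Detection of Cd14 differed by at most a few percent between cells with and without Tlr2, with overlapping intervals in each of the 4 pools. Of thinned microglia-like cells with a Tlr2 UMI 45.3% (42.4 to 48.1) also held Cd14 in stroke females, and of those without it 45.9% (43.7 to 48.1). In stroke males these shares were 43.9% (41.0 to 46.8) and 47.3% (45.0 to 49.6). In sham they were 67.6% (63.7 to 71.3) and 63.9% (61.9 to 65.9) in females and 73.5% (70.3 to 76.4) and 69.9% (68.2 to 71.4) in males, higher with Tlr2. The intervals overlapped in females, in stroke males and in sham males. Tlr1 was found in 9.25% of Tlr2-positive and 8.90% of other cells in stroke females and in 9.15% and 8.07% in males, with overlapping intervals.

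Macrophage-like cells of monocyte type carried Ccr2, Chil3 and Arg1. Of the members above 0.1 UMIs per 10000, 3 were at least 2-fold lower in them than in microglia-like cells of the same stroke pools. Tlr2 was at 1.05 and 0.995 UMIs per 10000 in females and males, 2.07 and 2.27 times below. Tlr7 was at 0.418 and 0.435, 2.11 and 2.13 times below. Tlr3 was at 0.0562 (0.0450 to 0.0695) and 0.0600 (0.0444 to 0.0793), 9.48 and 9.71 times below. After thinning, 1.06% and 0.911% of macrophage-like cells held Tlr3. Neuron-like cells had 0.709% and 5.19% in sham females and males, and the 10 and 8 of them in the stroke pools were too few for a background there.

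By a rule of at least 2-fold in both sexes, 3 of the 8 members above the minimum level of 0.1 UMIs per 10000 were lower and 0 higher, where 15.1% and 7.6% of 8358 genes were. Myd88 was at 0.644 and 0.566 in macrophage-like against 0.343 and 0.334 in microglia-like cells, and Tlr1 at 0.385 and 0.428 against 0.290 and 0.287, both short of that rule. Tlr4 and Tlr13 were slightly higher in macrophage-like cells, also short of it. Cd14 was lower but short of the rule, at 1.51 and 1.18 against 2.19 and 2.11. Tlr9, under the minimum level, was at 0.00981 and 0.00735 against 0.0208 and 0.0189. The class held 1053 and 559 cells in stroke females and males and 5 and 19 in sham.

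RNA of macrophage markers was also present in microglia-like cells. All 10 markers had UMIs in each pool, and their summed level was 0.187 and 0.150 UMIs per 10000 in sham females and males and 0.777 and 0.675 in stroke, against 53.3 and 40.7 in macrophage-like cells of the stroke pools. Without the microglia-like cells holding 2 or more such UMIs the log2 change of Tlr2 was 1.59, of Cd14 -0.61 and of Tlr3 -0.66, each past the threshold.

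Myd88 and Tlr13 stood out in neutrophil-like cells, of which the sham pools held 3 and 5. Myd88 was at 1.79 UMIs per 10000 (1.42 to 2.23) in stroke females and 1.44 (1.01 to 1.98) in stroke males, and Tlr13 at 1.72 (1.36 to 2.15) and 1.48 (1.05 to 2.03). Each was above the level in microglia-like cells of the same pool. These values rest on 115 and 68 cells with median depths of 3153 and 2821.5 UMIs, most of them below the lowest depth in the male sham pool.

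Dendritic cell-like cells, named from 4 of 9 markers including H2-Aa, Cd74 and Cd209a, had more Myd88 in the stroke pools. It was at 0.404 UMIs per 10000 (0.266 to 0.588) in sham females and 0.427 (0.303 to 0.583) in sham males, and 1.02 (0.864 to 1.20) and 0.965 (0.791 to 1.16) in stroke females and males. Cd14 was at 1.30 and 2.50 in sham females and males and 0.569 and 0.50 in stroke. Tlr4 was at 0.269 and 0.241 against 0.0548 and 0.0715, and Tlr7 at 0.269 and 0.284 against 0.0685 and 0.0715. Each of these 4 genes had separate counting intervals between sham and stroke in both sexes, and the other members did not. The share of all genes with separate intervals in this class was not counted. The cells numbered 52 and 92 in sham and 126 and 82 in stroke, and the part of a different mix of dendritic cells in these differences was not tested.

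Border-associated macrophage-like cells, with Mrc1 and Cd163, were rare, at 11 and 24 cells in sham females and males and 14 and 15 in stroke. Cd14 was there at 2.80 UMIs per 10000 (1.66 to 4.42) in sham females and 5.26 (4.15 to 6.57) in sham males, and 2.44 (1.79 to 3.26) and 2.32 (1.47 to 3.49) in stroke females and males. Tlr3 was low, at 0.155 UMIs per 10000 (0.00394 to 0.866) in sham females and 0.137 (0.0165 to 0.493) in sham males, and 0.159 (0.0329 to 0.466) and 0.101 (0.00256 to 0.563) in stroke females and males.

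The start of Myd88 is shown because of these levels in cells other than microglia. The gene lies at chr9:119335934-119341411 on the minus strand. The sequence, chr9:119340042-119340268 (GRCm38.p6, RefSeq start), lies inside the longest GENCODE model but in none of its exons, and capitals mark the interferon response core.
Myd88: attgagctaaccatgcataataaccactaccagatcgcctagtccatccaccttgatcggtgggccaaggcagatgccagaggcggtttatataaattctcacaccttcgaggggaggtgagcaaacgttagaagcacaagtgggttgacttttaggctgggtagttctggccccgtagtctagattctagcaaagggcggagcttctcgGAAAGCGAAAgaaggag
That core was held by 2.7% of promoters within the same 227 bases. Of the starts searched but not shown, that of Tlr13 held none of the motifs within 179 bases. That of Tlr9 held the AP-1 motif, as did 6.75% of promoters within the same 250 bases. In interferon-responsive-like microglia Myd88 was at 0.619 UMIs per 10000 (0.411 to 0.895) in sham females and 0.584 (0.411 to 0.805) in sham males, and 0.433 (0.379 to 0.493) and 0.424 (0.377 to 0.476) in stroke females and males. In homeostatic-like cells it was at 0.478 UMIs per 10000 (0.445 to 0.512) in sham females and 0.540 (0.497 to 0.586) in sham males, and 0.425 (0.353 to 0.508) and 0.327 (0.262 to 0.403) in stroke females and males. The intervals of these states overlapped in each of the 4 pools.

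**Figure D4:**
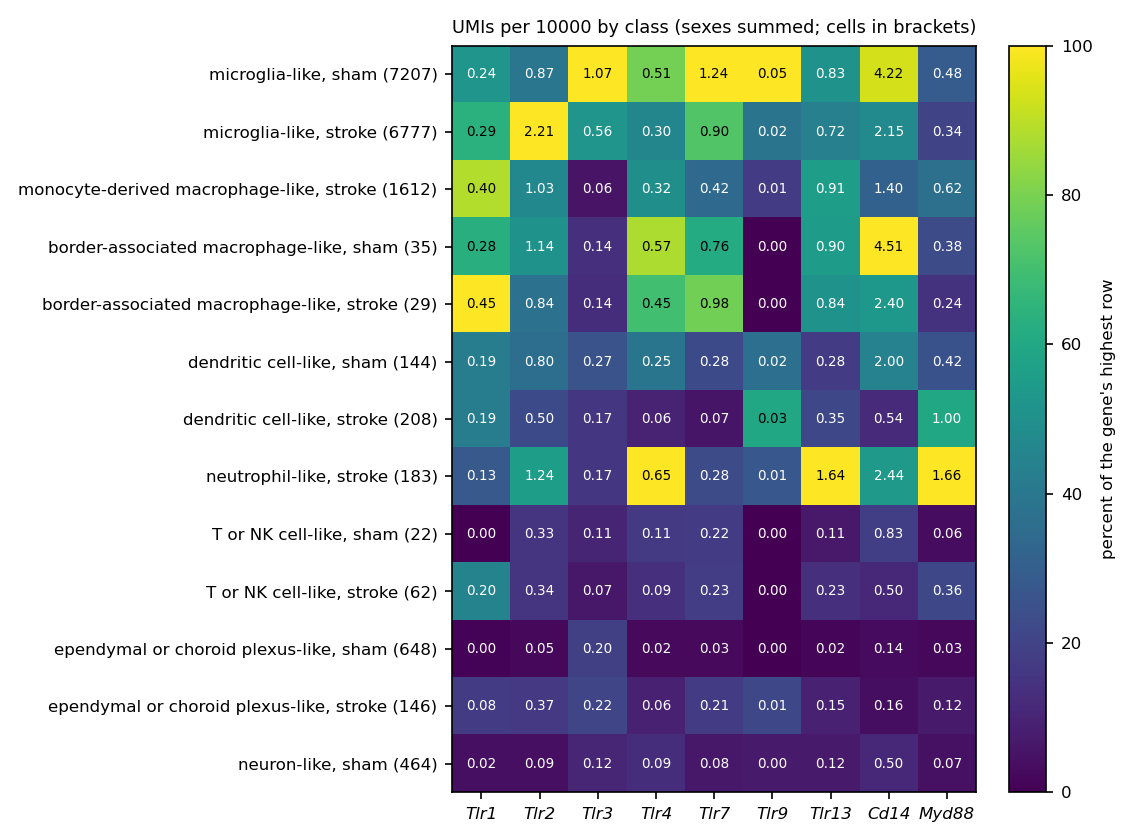
UMIs per 10000 of each member by class and treatment, the sexes summed, for rows with at least 20 cells. Colour gives each gene's level as a percent of its highest row, and the numbers are the levels, which are not comparable between genes. Tlr2 is highest in microglia-like stroke cells, and Myd88 and Tlr13 in neutrophil-like stroke cells.

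Choroid plexus-like cells held Tlr3 at 0.199 UMIs per 10000 (0.148 to 0.263) in sham females and 0.202 (0.179 to 0.228) in sham males, and 0.224 (0.169 to 0.291) and 0.225 (0.144 to 0.334) in stroke females and males. The ratio of Tlr3 to Cd14 UMIs was 3.12 in sham females, 1.32 in sham males and 1.10 in stroke females in these cells, against 0.296, 0.222 and 0.244 in microglia-like cells of the same pools. In neuron-like cells it was 0.186 and 0.263 in sham females and males. Tlr3 was thus found in choroid plexus-like cells in another proportion to Cd14 than in microglia-like cells.

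The other genes of the pathway were counted by role, from 55 listed genes of which 51 were tested. In microglia-like cells 13 were called higher and 14 lower after stroke, and 24 did not pass. Over all genes 25.1% were called higher and 24.8% lower, close to the shares of this list, and the counts by role below are to be read against them. Their median log2 change was -0.10. The count of lower genes was 3 without the female stroke or without the male stroke pool and 30 with library totals.

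Of the other Toll-like receptors 0 of 3 tested rose and 2 fell. Tlr5, the flagellin receptor, was at 0.0741 and 0.0588 UMIs per 10000 in sham females and males and at 0.00807 and 0.00947 in stroke, a log2 change of -2.61 ± 0.28 (edgeR adjusted p = 5.2e-10). Tlr12, a profilin receptor, was at -0.67 ± 0.15 (edgeR adjusted p = 4.7e-04), and its call was lost without the female stroke pool (-0.58, adjusted p = 0.053) and after thinning (-0.22, adjusted p = 0.35). Tlr6, the other partner of TLR2, was at 0.10 ± 0.15 with TMM (edgeR adjusted p = 0.61) and at -0.20 with library totals.

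Of 10 coreceptors and chaperones 5 rose and 3 fell. Cd36, a scavenger receptor that works with TLR2, was at 0.00796 and 0.0138 UMIs per 10000 in sham females and males and at 0.105 and 0.0886 in stroke, a log2 change of 3.43 ± 0.26 (edgeR adjusted p = 1.3e-13). It was higher still in macrophage-like cells, at 0.625 and 0.661. Ly86, the partner of the TLR4 homologue CD180, rose by 0.81 ± 0.15 (edgeR adjusted p = 3.9e-05). Lbp, which brings lipopolysaccharide to CD14, was at -1.21 ± 0.44 (edgeR adjusted p = 0.020) on 17 to 43 UMIs per pool, and its call was lost in 5 of 14 alternatives.

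Of 6 adaptors 3 rose and 0 fell. Scimp, an adaptor of TLR signalling in macrophages, rose by 1.13 ± 0.20 (edgeR adjusted p = 1.3e-05). Pik3ap1 was at 0.53 ± 0.14 (edgeR adjusted p = 0.0020), with its call lost in 3 of 16 alternatives, among them library totals and the fit without the male stroke pool. Sarm1 was at 0.86 ± 0.36 (edgeR adjusted p = 0.044), with its call lost in 8 of 15.

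Of 16 kinases and ubiquitin ligases 2 rose and 5 fell. Ikbke, a kinase that activates interferon regulatory factors, rose by 2.78 ± 0.39 (edgeR adjusted p = 3.2e-07). Irak2, a kinase downstream of MyD88, was at -0.77 ± 0.14 (edgeR adjusted p = 1.5e-05) and the ubiquitin ligase Peli1 at -0.58 ± 0.14 (adjusted p = 7.1e-04).

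Of 7 transcription factors 2 rose and 3 fell. Irf7, itself an interferon-induced gene, was at 0.0617 and 0.0896 UMIs per 10000 in sham females and males and at 0.461 and 0.530 in stroke, a log2 change of 3.02 ± 0.16 (edgeR adjusted p = 5.3e-18). Nfkb2 rose by 0.66 ± 0.15 (edgeR adjusted p = 5.6e-04), and Irf5 was at -0.56 ± 0.14 (adjusted p = 0.0010). Of 9 tested inhibitors 1 rose and 1 fell. Sigirr, an inhibitory receptor, rose by 2.41 ± 0.40 (edgeR adjusted p = 5.5e-06) from 8 and 11 UMIs to 79 and 69, and Tifab was at -0.53 ± 0.14 (adjusted p = 0.0020).

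Female and male pools were compared in the same fit, since Tlr7 and Tlr13 are X-linked, at chrX:167304929-167330558 and chrX:106143204-106160493. Of the 9 members 0 were called higher or lower in females by edgeR, where 0.0493% and 0.0352% of genes were, 0 had an unadjusted p under 0.05, and DESeq2 also called 0. The log2 difference, female minus male, was 0.11 ± 0.14 for Tlr7, 0.14 ± 0.14 for Tlr13 and -0.15 ± 0.15 for Cd14. With 1 pool per sex and treatment, a difference between the sexes in the response could not be tested.

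Genes with the most similar pattern were sought over 48 units, each 1 pool of 1 class or microglia cluster with at least 50 cells, among 12603 genes. The Pearson correlation of log2 levels was highest for Tlr7 with Rnase4 (0.974), Trem2 (0.974) and Anxa3 (0.970), and for Cd14 with Apbb1ip (0.947), Cd84 (0.945) and Havcr2 (0.929). Tlr2 was nearest to Gusb (0.942), Ctsz (0.907) and Plek (0.904), and Tlr3 to F11r (0.927), Tlr12 (0.921) and Bco2 (0.915). Tlr4 was nearest to Fli1 (0.930), Dusp6 (0.928) and C5ar2 (0.924), and Tlr13 to Vav1 (0.942), Dtx4 (0.942) and Ncf1 (0.937). Tlr1 was nearest to Cd68 (0.909), B2m (0.901) and Ctsh (0.898), and Myd88 to Ncf4 (0.902), Mcl1 (0.895) and Lfng (0.893). Units share pools and many are microglia-like, so these values describe the units and carry no test. Tlr9 was under the minimum level of 0.2 UMIs per 10000 in each unit.

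Between members the correlation over the same units was highest for Cd14 with Tlr7 (0.86), Tlr4 with Tlr13 (0.85) and Cd14 with Tlr13 (0.83). It was lowest for Myd88 with Tlr3 (0.14) and with Tlr7 (0.24).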

How the data were processed

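The deposited matrices hold whole-number counts of UMIs per feature and barcode, made by the authors with Cell Ranger 7.1.0 and mm10 per the submitters' processing notes, whereas the file headers name cellranger 6.1.2. The use of intronic reads or of strand in counting was not given in the sources used here.

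Cells with at least 500 genes, 1000 UMIs and at most 10% mitochondrial UMIs were kept. Counts were log-scaled and clustered on 2000 variable genes, without the members and pathway genes, with 30 principal components, 15 neighbours and Leiden resolution 0.8 (leidenalg 0.10.2, scikit-learn 1.9.0, Python 3.11.15). Clusters were named from marker lists, and doublets were not removed. The total per pool was 29581392 UMIs in female sham, 40970923 in male sham, 66072270 in female stroke and 52733857 in male stroke.

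UMIs were summed per pool over microglia-like cells and tested with edgeR 4.0.16 (R 4.3.3): sex and treatment as terms, TMM, default filter on low counts, 2-sided quasi-likelihood test, Benjamini-Hochberg adjustment over 14209 genes, threshold 0.05. The SE was taken as the size of the log2 change over the square root of F. The test was also run on simulated counts. Levels are UMIs per 10000 UMIs of the class. Alternatives included DESeq2 1.42.0, other scaling, filters, depth, clustering and leaving out each pool.

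The 9 members and the lists were chosen with earlier results of these data known. Named pathway genes are the tested other Toll-like receptors and, per role, up to 3 genes past the threshold with the largest log2 change. For each member, the 3 genes of highest Pearson correlation of log2(UMIs per 10000 + 0.1) are also named.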

Additional observations from a re-analysis of the deposited data

How the results depend on the processing

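Tlr2 kept its direction and its call in all 16 alternatives, with log2 changes of 0.58 to 1.69. Tlr1 ranged from 0.29 to 0.72, Cd14 from -0.96 to -0.09, Tlr3 from -0.94 to -0.26 and Tlr9 from -1.38 to -0.56, each losing its call in 2 of 16, and Tlr4, from -0.78 to -0.12, in 3. With library totals 1 member was called higher and 6 lower, and over all genes 2296 were higher and 6344 lower, with 30 pathway genes lower. Under DESeq2 2 members, 9 pathway genes and 1547 genes were lower. Thinning to 3000 UMIs gave 2334 genes higher and 1820 lower, with 6 pathway genes lower, and leaving out cycling cells gave 8 pathway genes lower. In homeostatic-like cells only, an alternative chosen after seeing the data, 1 member was higher and 0 lower, 2 pathway genes were higher and 0 lower, and 422 genes were higher and 213 lower. That setting tests fewer cells; otherwise the cause was not tested.

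Leaving out 1 pool, without the sex term and with 1 arm of 1 pool, gave 2307 to 4502 genes higher and 1671 to 3974 lower, with the low ends without the female stroke pool. It gave 2 to 5 members lower and 3 to 17 pathway genes lower. Tlr6 ranged from -0.04 to 0.29 in these fits, reversing without the male sham pool, and was -0.20 with library totals. Tlr13 reversed with library totals (-0.22) and Tlr12 in homeostatic-like cells (0.29).

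The sex differences near 0 changed sign in Tlr2 (-0.03 in DESeq2, -0.01 at 5% mitochondrial UMIs and -0.01 thinned), Tlr3 (0.00 with library totals, 0.02 thinned), Tlr4 (-0.01 in DESeq2) and Tlr9 (-0.15 at 5% mitochondrial UMIs, -0.04 thinned).

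Without thinning, 3 members in place of 6 had lower shares of positive cells in both stroke pools. The highest class or state was ranked by the mean over pools with at least 50 cells in it, so alternatives can change what is ranked. With the minimum depth of male sham, 4198 UMIs, applied to all pools, Myd88, Tlr13 and Tlr4 no longer ranked highest in neutrophil-like cells. These numbered 115 and 68 at median depths of 3153 and 2821.5 UMIs, so that minimum removed most of them, and a change of their levels was not tested. A limit of 5% mitochondrial UMIs ranked Tlr2 highest in the Spp1 and Igf1 high-like in place of the Ccl3 and Ccl4 high-like state, where the pools averaged can differ too. The sex term already pairs sham with stroke within sex; without it 2 members were called higher and 4 lower, as with it. There are no replicate numbers for another pairing.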
